A study of Homo sapiens with 4 samples.

Results

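The sites described here are the strongest crosslink sites of a control immunoprecipitation: the 768 sites with a score greater than 5 among the 111361 sites of the pooled IgG list (270283 sites in the IgG and PDCD4 lists together). iCLIP was carried out in MCF10A cells, a non-transformed human breast epithelial line labelled as WT, with 2 IgG and 2 PDCD4 antibody replicates from cells cross-linked with UV-C light. Each antibody has a single list that pools its replicates, in which a site is 1 nt wide and its score is the number of cDNAs counted there. The IgG list summed to 276139 cDNAs and the PDCD4 list (158922 sites) to 409308. No value per replicate was analysed, so no test between lists was possible, and the 95% intervals given with shares (Wilson) and medians (order statistics) cover counting error only. Among marker genes, 6 of 7 basal and 4 of 4 general epithelial genes held an IgG site, and 0 of 6 markers of other cell types did.

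In iCLIP, UV light fixes RNA to the protein that touches it, and reverse transcription tends to stop next to the fixed nucleotide, so that the end of each cDNA marks a contact. An isotype IgG has no defined RNA-binding target, and what it brings down is RNA attached to proteins that stick to the beads, the tube or the antibody. Background of this kind is known to favour abundant RNAs. RNA abundance was not analysed here, so a strongly cross-linked RNA and an abundant RNA cannot be told apart.

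The sites were chosen by their IgG score, which is therefore given only as a description. The 768 sites summed to 4980 cDNAs, with a mean score of 6.48 and a highest score of 22. Most lay at the threshold: 558 had a score of 6, 133 a score of 7 and 77 a score of 8 or more. Just outside the threshold, 2098 IgG sites had a score of 5. The sites were scattered, since merging sites within 10 nt left 745 clusters, of which 727 held a single site.

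The sequences of the leading sites are shown first, to show which stretches of RNA carried the highest IgG scores. Each run is 29 nt of the transcribed strand from GRCh38, 5′ to 3′, with T for U and with capitals for the crosslinked position and the next 2 nt. The highest scores lay in small Cajal body RNAs, in MALAT1, in the 3′UTR of HDGF (hepatoma-derived growth factor) and in an intron of HPCAL1 (a calcium sensor).
SCARNA2, score 22, chr1:109100349-109100377, plus strand: cccctcctcccgctTACactttgatctta
SCARNA7, score 18, chr3:160515086-160515114, minus strand: gcatgtgtgtgtgcTTGtggtggctatgg
SCARNA2, score 15, chr1:109100461-109100489, plus strand: gcagcgaggcccctTAGgcggcggccacg
MALAT1, score 12, chr11:65503120-65503148, plus strand: ggtatctcttcgttATCagaagagttgct
HDGF, score 11, chr1:156742754-156742782, minus strand: gggcttccaagttgTTCgggccaaggacc
SCARNA9, score 11, chr11:93721617-93721645, plus strand: tgagaagcaaaactATAaaacaatgtaaa
HPCAL1, score 11, chr2:10397301-10397329, plus strand: gggtttctttgtctTCTatcccctgcagc

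Members from among those with the most PDCD4 cDNAs within 10 nt are shown next to them. They lay in both mitochondrial ribosomal RNAs, in the coding sequence of ACTB (cytoplasmic actin) and in the 5′UTR of MT2A (a metallothionein).
MT-RNR2, score 6, chrMT:2200-2228, plus strand: agcgttcaagctcaACAcccactacctaa
MT-RNR1, score 9, chrMT:932-960, plus strand: cggcgtaaagagtgTTTtagatcaccccc
ACTB, score 8, chr7:5528592-5528620, minus strand: tccggtgacggggtCACccacactgtgcc
MT2A, score 6, chr16:56608577-56608605, plus strand: gcactccaccacgcCTCctccaagtccca
A last sequence, in an intron of ANKS1B, is shown for its repeat, since the 30 nt after this site occurred 202023 times in the genome.
ANKS1B, score 6, chr12:99909240-99909268, minus strand: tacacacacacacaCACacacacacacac

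The background above the threshold differed from the rest of the IgG list in where it lay. Introns held 343 of the 768 sites (44.7%, 41.2% to 48.2%), against 66.2% (65.9% to 66.5%) of the IgG sites with scores of 1 to 5. Exons of noncoding RNA held 146 (19.0%, 16.4% to 21.9%), against 5.10% (4.98% to 5.24%) of the lower sites. This region took in the exons of every transcript without a coding sequence, including noncoding transcripts of protein-coding genes. Sites in such transcripts were not counted apart. Protein-coding genes were hosts of 94.5% of the lower sites and 80.5% of the members, so the make-up of this region can differ between the groups. Coding sequence held 119 (15.5%, 13.1% to 18.2%) and 9.68% of the lower sites. The share in 3′UTRs was alike, with 138 sites (18%, 15.4% to 20.8%) against 17.6% (17.4% to 17.8%). A further 20 sites lay in 5′UTRs and 2, in PLEKHG5 and CDK5R1, in no annotated region.

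**Figure D1:**
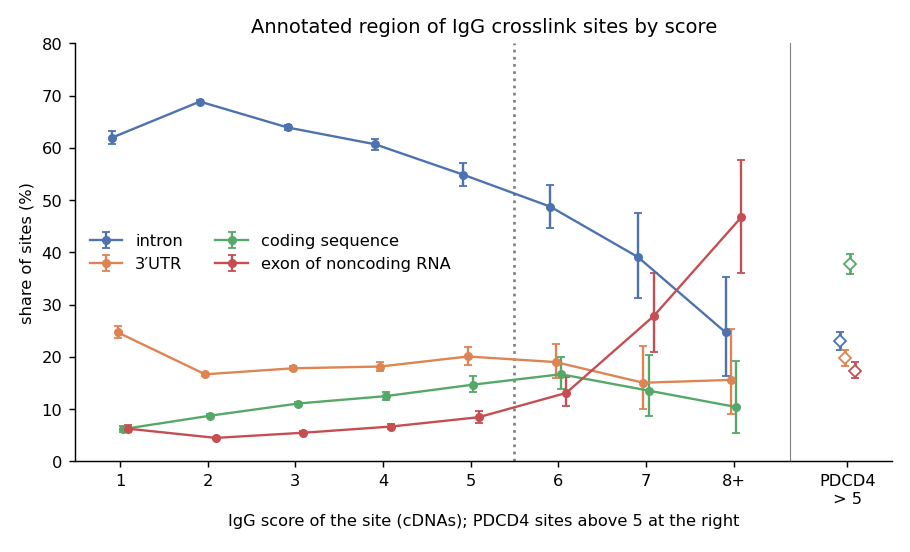
Share of IgG sites (y axis, percent) in each annotated region by the score of the site (x axis, cDNAs), with PDCD4 sites above 5 as open diamonds at the right; bars are 95% Wilson intervals and the dotted line marks the threshold. The intron share falls from 48.7% at a score of 6 to 24.7% at 8 or more, while the share in exons of noncoding RNA rises from 13.1% to 46.8%.

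The same shift went on inside the members. Among the 77 sites with a score of 8 or more, exons of noncoding RNA held 36 (46.8%, 36.0% to 57.8%) and introns 19 (24.7%, 16.4% to 35.4%). Among the 558 sites with a score of 6, the counts were 73 (13.1%, 10.5% to 16.1%) and 272 (48.7%, 44.6% to 52.9%). The intervals of the extremes did not overlap for either region, but they treat sites of the same RNA as independent. At 8 or more, NEAT1 and MALAT1 held 16 of the 77 sites. Small nuclear, nucleolar and Cajal body RNAs held another 16, so few RNAs carried much of the shift. The coding share, by contrast, was 10.4% (5.36% to 19.2%) at 8 or more and 16.7% (13.8% to 20.0%) at 6, with overlapping intervals. PDCD4 sites above 5 differed from the members in coding sequence, which held 37.7% of them, and in introns, which held 23.0%.

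By the class of the host gene, 618 members lay in protein-coding genes (80.5%, 77.5% to 83.1%), 326 of these in introns. Genes of long noncoding RNAs held 96 (12.5%, 10.3% to 15%), small Cajal body RNAs 24 (3.13%, 2.11% to 4.61%), small nuclear RNAs 7 (with 1 in 7SK RNA, which GENCODE puts in this class), small nucleolar RNAs 4 and pseudogenes 4. The mitochondrial genome held 32 (4.17%, 2.97% to 5.82%). Of every listed IgG site, 94.4% lay in protein-coding genes, 4.16% in long noncoding RNAs, 0.154% in small Cajal body RNAs and 0.225% on the mitochondrial genome. In the PDCD4 sites above 5 these shares were 81.4%, 5.27%, 0.127% and 10.6%. The protein-coding share of the members was thus near that of the PDCD4 sites above 5. In protein-coding genes the share fell from 87.6% (84.6% to 90.1%) at a score of 6 to 51.9% (41.0% to 62.7%) at 8 or more. Members in small nuclear, nucleolar and Cajal body RNAs went from 10 of 558 (1.79%, 0.976% to 3.27%) to 16 of 77 (20.8%, 13.2% to 31.1%). Protein-coding genes nonetheless held 489 of 558 members at a score of 6, 89 of 133 at 7 and 40 of 77 at 8 or more.

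The 768 sites fell in 562 host genes. A single member was found in 485 of them, a pair in 49, and 3 or more in 28. The 10 leading genes held 18.9% of the members' cDNAs and the 2 at the top, NEAT1 and MALAT1, held 10.3%. In the PDCD4 sites above 5 the 10 leading genes held 38.5% and the 2 at the top 28.6%, so most of the gap between the sets lay in the top pair. Among IgG sites with a score of 8 or more, the 10 leading genes held 53.6%. Of the 562 host genes, 149 (26.5%) also held a PDCD4 site above 5, where 8.2% of all 11526 genes with any IgG site did. A PDCD4 site of any score was listed in 546 (97.2%), against 86.9% of all genes with an IgG site. Coverage per gene was not matched in this comparison.

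**Figure D2:**
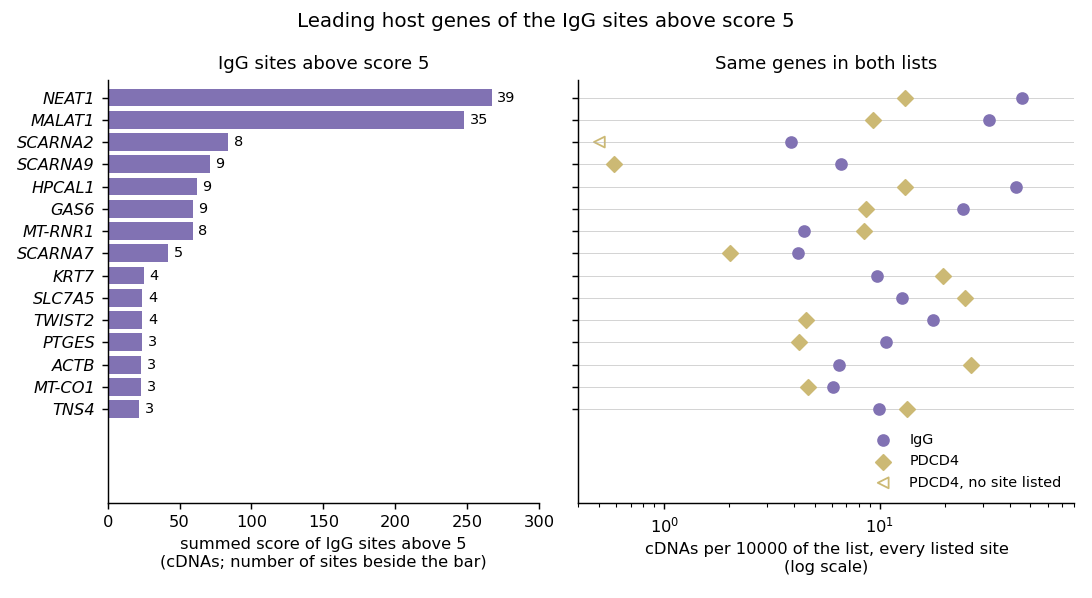
Left, summed score (cDNAs) of the IgG sites above 5 in the 15 leading host genes, with the number of sites beside each bar; right, cDNAs per 10000 of each list (log scale) at all listed sites of these genes, IgG as circles and PDCD4 as diamonds. NEAT1 and MALAT1 lead with 267 and 248 cDNAs, and SCARNA2 has no listed PDCD4 site (open triangle at the left edge, which is not a value).

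NEAT1 and MALAT1 are long noncoding RNAs that stay in the nucleus, where NEAT1 builds paraspeckles and MALAT1 lies in nuclear speckles. NEAT1 held 39 members with 267 cDNAs and scores of 6 to 10, spread over 20846 nt from nt 74 to nt 20919 of the gene with a median gap of 398 nt. MALAT1 held 35 members with 248 cDNAs and scores of 6 to 12, over 6390 nt with a median gap of 77 nt. Together they made 74 members (9.64%), while they made 0.602% of every listed IgG site and 1.32% of the PDCD4 sites above 5. Over every listed site, the levels per 10000 cDNAs were 45.7 (IgG) and 13.1 (PDCD4) for NEAT1 and 32.1 and 9.33 for MALAT1. A PDCD4 site lay within 10 nt of 5 of the 39 NEAT1 members and 9 of the 35 MALAT1 members. These levels are a description, since the IgG level includes the members' own cDNAs and IgG positions had been subtracted on the PDCD4 side.

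Small Cajal body RNAs guide the chemical modification of spliceosomal RNAs in Cajal bodies, and 5 of them supplied 24 members. SCARNA2, which guides the modification of U2 small nuclear RNA, held 8 members with 84 cDNAs in a gene of 420 nt. In order along the RNA, its sites at nt 82, 88 and 129 had scores of 8, 10 and 8, those at nt 171, 173 and 175 had 22, 6 and 7, and those at nt 282 and 283 had 8 and 15. The scores thus formed 4 groups, with a single dominant position in the group at nt 171. Over every score the IgG list held 17 sites and 107 cDNAs in SCARNA2, and the PDCD4 list held 0 sites. The PDCD4 list shows only sites that passed its own filter, and by the study's methods IgG crosslink sites had been subtracted on the PDCD4 side ahead of peak calling (721 IgG positions were nevertheless listed for PDCD4 too), so the 0 is no measure of the level of this RNA under the PDCD4 antibody.

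SCARNA9, also a guide for U2, held 9 members with 71 cDNAs in a gene of 353 nt. Its sites at nt 30 and 119 had IgG scores of 8 and 11 and no PDCD4 site within 10 nt. At nt 196, 200 and 204 the scores were 7, 8 and 7, with 9, 11 and 11 PDCD4 cDNAs within 10 nt. At nt 255, 259, 261 and 263 the scores were 10, 7, 6 and 7, with 3 PDCD4 cDNAs within 10 nt of each; these windows overlap and share their PDCD4 sites. SCARNA7 held 5 members with 42 cDNAs. Its scores were 6 at each of nt 78, 80, 120 and 124 and 18 at nt 137, and the PDCD4 sums within 10 nt were 18, 13, 7, 11 and 12. Thus all 5 SCARNA7 members had PDCD4 cDNAs beside them, as did 7 of 9 in SCARNA9 and 0 of 8 in SCARNA2.

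Expressed per length, as summed scores of exonic members per 1000 nt of exon, these RNAs stood above the long ones. The values were 201.1 for SCARNA9, 200 for SCARNA2 and 127 for SCARNA7, against 61.8 for MT-RNR1, 23.8 for MALAT1 and 11.7 for NEAT1. Only sites above 5, in genes that hold them, enter these sums, so a short RNA reaches a high value with few sites. The order is therefore given only as a description. The remaining small RNA members were few. RNU12, a small nuclear RNA of the minor spliceosome, had sites with scores of 8 and 10 at nt 75 and 82, each with 3 PDCD4 cDNAs within 10 nt. RNU2-2P, a U2 gene that overlaps a 5′UTR of the same strand, had 8 and 7 at nt 87 and 56, with 14 and 3 PDCD4 cDNAs. SNORA73A, a small nucleolar RNA, had 9 and 8 at nt 29 and 53, with 12 and 4 PDCD4 cDNAs. In all, 20 of 34 members in small nuclear, nucleolar and Cajal body RNAs had a PDCD4 site within 10 nt (58.8%, 42.2% to 73.6%). The interval treats sites as independent, although members in SCARNA7 and SCARNA9 lie close enough to share PDCD4 sites. Around points 100 nt upstream and downstream, 1 and 8 of the 34 had one, but such points can lie outside RNAs this short. The genes of U2 and of other small nuclear RNAs have near-identical copies elsewhere in the genome, and reads from them could have been assigned to any copy.

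On the mitochondrial genome, 11 members lay in ribosomal RNA, 19 in mRNA and 2 in transfer RNA. MT-RNR1, the RNA of the small mitochondrial ribosomal subunit, held 8 with 59 cDNAs. Along the RNA, at nt 236, 256, 299, 619, 681, 704, 716 and 894, the IgG scores were 7, 8, 9, 6, 7, 8, 8 and 6. The PDCD4 cDNAs within 10 nt of the same sites were 0, 0, 23, 2, 18, 13, 0 and 0. PDCD4 cDNAs were thus listed beside 4 of the 8 MT-RNR1 members. MT-RNR2, the RNA of the large subunit, held only 3 members with 21 cDNAs, but 192 PDCD4 sites above 5. Its IgG scores of 9, 6 and 6 stood beside PDCD4 sums of 0, 200 and 79. Over every listed site, MT-RNR2 had 1.99 IgG and 91.4 PDCD4 cDNAs per 10000, in the opposite order to NEAT1. The 19 members in mitochondrial mRNA, with 125 cDNAs, lay in 9 genes for respiratory chain subunits, and MT-CO1 had the largest sum, with scores of 9, 7 and 7.

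Among protein-coding hosts, the pair with the largest summed scores held nearly all its members in introns. HPCAL1 held 9 members, all in introns, with 62 cDNAs over 16651 nt, and scores of 11, 8, 7 and, at 6 sites, 6. GAS6, a ligand of TAM receptor kinases, held 9 (8 in introns) with 59 cDNAs over 29551 nt and scores of 6 to 9. TWIST2, a transcription factor, held 4 intronic sites with scores of 6, a sum of 24 that SLC7A5 and PTGES equalled in their 3′UTRs. Over every listed site, HPCAL1 had 13.1 PDCD4 and 42.8 IgG cDNAs per 10000, GAS6 8.60 and 24.2, and TWIST2 4.57 and 17.6. The IgG level of a host gene contains the cDNAs that chose it, and over the 562 host genes the median log2 ratio of PDCD4 over IgG was -0.42, against -0.06 over all 14173 genes with a site. The intronic members as a group lay at a median of 2240 nt (1737 to 2971) from the nearest exon of the same strand. This was near the 2461 nt (2420 to 2498) of the lower IgG sites and farther than the 1030 nt (831 to 1224) of intronic PDCD4 sites above 5.

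Members in exons of mRNAs lay in genes of several kinds. The prostaglandin synthase PTGES had 3 sites in its 3′UTR with scores of 9, 8 and 7, and PDCD4 sums of 0, 6 and 0 within 10 nt. The amino acid transporter SLC7A5 had 4 in its 3′UTR, each with a score of 6, and PDCD4 sums of 6, 5, 0 and 6. ACTB had 3 in coding sequence with scores of 9, 8 and 6, and PDCD4 sums of 18, 20 and 15. TNS4, a focal adhesion protein gene, had 3 in its 3′UTR with scores of 10, 6 and 6, and PDCD4 sums of 10, 0 and 43. KRT7, a simple-epithelial keratin, had a site in coding sequence with a score of 7, a site in the 3′UTR with 6 and 2 in introns with 6, and PDCD4 sums of 0, 11, 0 and 12. All 3 ACTB members thus had more PDCD4 than IgG cDNAs in the same window, where the IgG sums were 11, 10 and 8. Over every listed site ACTB had 26.4 PDCD4 and 6.48 IgG cDNAs per 10000, KRT7 19.7 and 9.67, SLC7A5 24.8 and 12.7, and PTGES 4.20 and 10.7.

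Other gene families held few members each. There were 7 in actin and tubulin genes (0.911% of the members, against 0.149% of every listed IgG site) and 6 in keratin genes (0.781% against 0.171%). Laminin and integrin genes held 7 (0.911% against 0.489%), hnRNP and SR genes 5 (0.651% against 0.409%) and translation factor genes 5 (0.651% against 0.559%). Ribosomal protein genes held 4 (0.521% against 0.387%), and a histone gene and 7SK RNA held 1 each. ACTB and TUBB, with 3 members each, supplied most of the actin and tubulin sites. Nuclear ribosomal RNA had 0 members and 3 listed IgG sites of any score, whereas 16 PDCD4 sites above 5 lay there.

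The bases at the sites followed a short pattern. Uracil stood at 342 of the 768 positions (44.5%, 41.1% to 48.1%) and cytosine at 224 (29.2%, 26.1% to 32.5%). At the next position adenine or uracil made up 660 (85.9%, 83.3% to 88.2%), and guanine only 25 (3.26%, 2.21% to 4.76%). At 2 nt after the site, cytosine made up 316 (41.1%, 37.7% to 44.7%) and uracil 293 (38.2%, 34.8% to 41.6%). A pyrimidine, then adenine or uracil, then a pyrimidine was found at 428 sites (55.7%, 52.2% to 59.2%). This share was 52.9% in the lower IgG sites and 53.7% in the PDCD4 sites above 5, so the outline of the pattern was common to the lists.

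**Figure D3:**
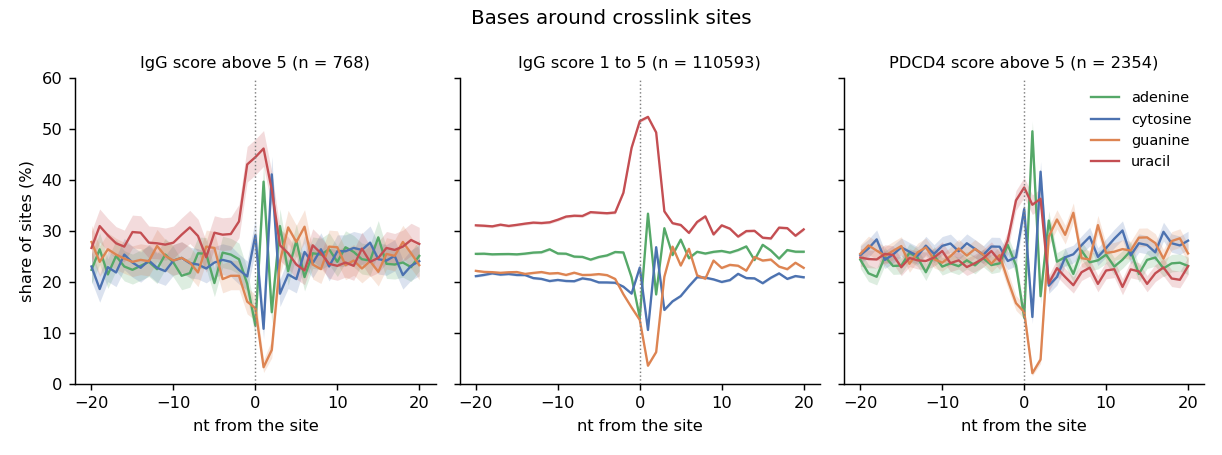
Share of sites (y axis, percent) with each base at offsets of -20 to 20 nt from the crosslink position (x axis), in IgG sites above 5, IgG sites of 1 to 5 and PDCD4 sites above 5; bands are 95% Wilson intervals. Guanine drops to 3.26% at the nucleotide after the IgG sites above 5, and cytosine rises to 41.1% at the following one.

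The lists differed in which pyrimidine filled the pattern. Cytosine at 2 nt after the site had a share of 41.1% in the members, 26.8% (26.6% to 27.1%) in the lower IgG sites and 41.7% (39.7% to 43.7%) in the PDCD4 sites above 5. UUU, counted from the site onward, was the most frequent triplet of the members, with 89 (11.6%). It made up 18.8% of the lower IgG sites and 7.94% of the PDCD4 sites above 5. UUC followed with 74 members (9.64%, 7.74% to 11.9%), above the 7.09% of the lower IgG sites and the 6.37% of the PDCD4 sites above 5. CAC came next with 60 (7.81%, 6.12% to 9.93%), followed by CAU with 59 and UAC with 49. CAC was the leading triplet of the PDCD4 sites above 5, at 11.1% (9.88% to 12.4%), and was found at 4.40% (4.29% to 4.53%) of the lower IgG sites. A run of 5 T within 10 nt occurred at 77 members (10.0%, 8.10% to 12.4%), 17.9% of the lower IgG sites and 6.97% of the PDCD4 sites above 5. In UUU, CAC and runs of T the members thus stood between the other groups.

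GC content showed the same order over all regions together. In the site and the 50 nt on either side of it, the members had a median GC of 47.5% (46.5% to 48.5%), with quartiles of 39.6% and 56.4%. The lower IgG sites had a median of 41.6% and the PDCD4 sites above 5 of 52.5% (51.5% to 53.5%). By IgG score the median was 38.6% at 1, 40.6% at 2, 43.6% at 3, 44.6% at 4 and 46.5% (45.5% to 46.5%) at 5. It then stayed at 47.5% at 6, 48.5% (44.6% to 49.5%) at 7 and 47.5% (44.6% to 51.5%) at 8 or more, so the rise lay mostly below the threshold. The median was also 47.5% in windows of 61 nt that were centred 100 nt upstream and 100 nt downstream of the members, so the GC content was that of the surroundings and not of the site alone. By region it was 63.9% in 5′UTRs, 51.5% (49.5% to 53.5%) in coding sequence, 47.5% (46.5% to 49.5%) in introns and 44.6% in both 3′UTRs and exons of noncoding RNA. Within introns the lower IgG sites had 41.6% and the PDCD4 sites above 5 had 54.5% (52.5% to 55.4%). These 2 groups had 48.5% and 58.4% in coding sequence, 38.6% and 50% in 3′UTRs, and 59.4% and 65.3% in 5′UTRs. In exons of noncoding RNA they had 43.6% and 44.6%, so the members did not stand between them there. MALAT1 members had 39.6% (37.6% to 42.6%) and NEAT1 members 48.5% (39.6% to 54.5%).

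Most members lay in sequence that occurs only once. The 30 nt after the site were found more than once in the genome, on either strand, for 94 members (12.2%, 10.1% to 14.7%), where 9.97% of all IgG sites were. The share was 16.7% (15.2% to 18.2%) in the PDCD4 sites above 5. On the mitochondrial genome it was 12 of 32 members, where nuclear copies of mitochondrial DNA exist. Only 24 members (3.13%) had more than 10 copies, against 5.06% of the lower IgG sites, and the ANKS1B site had the most.

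PDCD4 sites were more frequent beside the members than beside other IgG sites. A PDCD4 site of any score lay within 10 nt on the same strand of 123 of the 768 members (16%, 13.6% to 18.8%), where 5.21% of all IgG sites had one. A PDCD4 site above 5 lay there for 20 members (2.60%, 1.69% to 3.99%), against 0.408% of all IgG sites. Around points 100 nt upstream and downstream, 10 members each had such a site (0.709% to 2.38% for both). These intervals overlapped the interval at the site. At IgG scores of 8 or more, 6 of 77 members had such a site within 10 nt. Around the shifted points it was 6 upstream and 7 downstream. On the opposite strand only 1 member had a PDCD4 site within 10 nt. Around points 100 nt away on the same strand, 69 members (8.98%, 7.16% to 11.2%) had one of any score upstream and 58 (7.55%, 5.89% to 9.64%) downstream. For PDCD4 sites of any score, the share at the site over all members was thus above that in the surroundings of the same sites. The surroundings were in turn above the 2.65% and 2.52% of the lower IgG sites. By region, 20 of 119 members in coding sequence had one at the site, 14 upstream and 13 downstream. In introns it was 14, 9 and 5 of 343, and the intervals overlapped in both regions. In 3′UTRs it was 40, 27 and 19 of 138, with overlap only upstream. In exons of noncoding RNA it was 43, 17 and 21 of 146, without overlap. On the mitochondrial genome alone, 10 of 32 members had a PDCD4 site of any score within 10 nt. There it was 11 around the upstream and 7 around the downstream points. The nearest PDCD4 site on the strand was at a median of 199.5 nt (155 to 245) for the members and 932 nt (916 to 948) for the lower IgG sites.

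**Figure D4:**
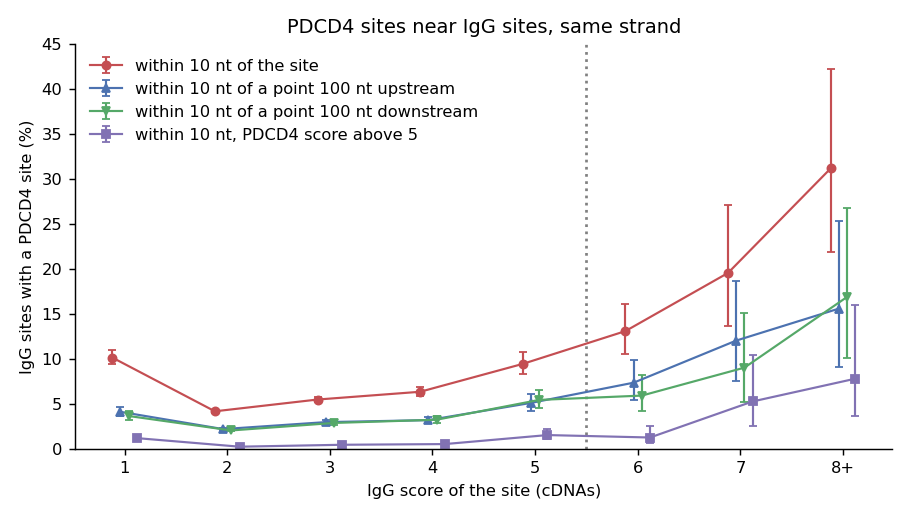
Share of IgG sites (y axis, percent) with a PDCD4 site on the same strand, by the score of the IgG site (x axis, cDNAs), within 10 nt of the site, of points 100 nt upstream and downstream, and within 10 nt with a PDCD4 score above 5; bars are 95% Wilson intervals and the dotted line marks the threshold. The share at the site rises from 4.17% at a score of 2 to 31.2% at 8 or more, above that at the shifted points.

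The share rose with the IgG score. It was 13.1% (10.5% to 16.1%) at a score of 6, 19.5% (13.7% to 27.1%) at 7 and 31.2% (21.9% to 42.2%) at 8 or more. Below the threshold it was 4.17% at 2, 5.48% at 3, 6.34% at 4 and 9.44% at 5. Sites with a score of 1 were an exception, at 10.1% (9.39% to 10.9%). In the windows 100 nt upstream the share also rose, from 2.19% at 2 to 15.6% (9.15% to 25.3%) at 8 or more, so local coverage moved with the result and its part was not tested.

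By region, 43 of 146 members in exons of noncoding RNA had a PDCD4 site within 10 nt (29.5%, 22.7% to 37.3%), against 8.43% of the lower IgG sites there. In 3′UTRs it was 40 of 138 (29.0%, 22.1% to 37.0%) against 13.3%, and in coding sequence 20 of 119 (16.8%, 11.2% to 24.5%) against 12.4%. In introns it was 14 of 343 (4.08%, 2.45% to 6.73%) against 1.53% (1.44% to 1.62%). The interval of the members in coding sequence included the value of the lower sites, and those of the other 3 regions named here did not. The largest group of members, in introns, was therefore the one least often accompanied by PDCD4.

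The PDCD4 score beside the members was mostly 0. No PDCD4 site was listed within 10 nt of 645 members, and the median sum over the other 123 was 5 cDNAs. The mean over all members was 1.41 cDNAs, against 0.737 and 0.564 in the windows 100 nt upstream and downstream, and 0.258 beside the lower IgG sites. The 2 sites in MT-RNR2 with sums of 200 and 79 weighed on this mean, which was 1.00 without the mitochondrial genome. For 25 members the PDCD4 sum exceeded the IgG sum of the same window. These included all 3 ACTB members, 3 in MT-RNR1, 2 in MT-RNR2, 2 in KRT7 and single sites in TNS4, MT2A, EEF2, RPL7A, HSP90AB1, GAS5 and others.

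**Figure D5:**
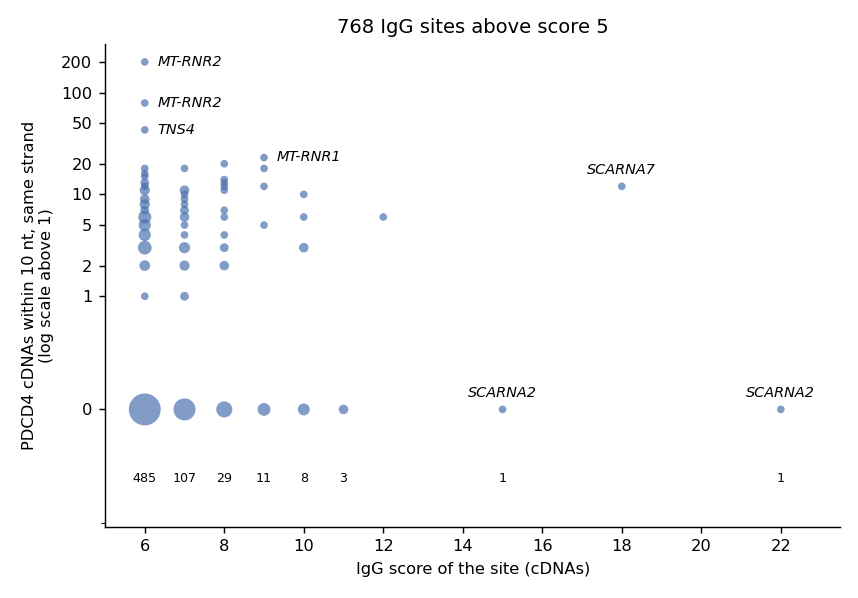
Summed PDCD4 score within 10 nt on the same strand (y axis, cDNAs, log scale above 1) against the IgG score (x axis, cDNAs) for the 768 members; the area of a point grows with the number of members and the numbers below are the members with no PDCD4 cDNA at each score. At a score of 6, 485 members have none, while MT-RNR2 reaches 200, and SCARNA2 has none at scores of 22 and 15.

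With each position counted once, the merged windows of 10 nt around the members held 1010 PDCD4 and 5744 IgG cDNAs, a log2 ratio of -3.08 (-3.17 to -2.98) per list total. The windows were chosen for a high IgG count, so the sign of this ratio carries no information, and it serves only to set the regions side by side. It was -5.59 in introns, -3.20 in coding sequence, -2.69 in 3′UTRs, -2.56 in 5′UTRs and -2.06 (-2.20 to -1.91) in exons of noncoding RNA. Without the mitochondrial genome the ratio was -3.60 (-3.71 to -3.48) over all regions, -2.95 (-3.23 to -2.67) in coding sequence and -3.35 (-3.56 to -3.13) in exons of noncoding RNA, so the order of these regions turned.

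Identical positions were rare. Of the 768 members, 20 (2.60%) were also listed at the same position for PDCD4, where 0.647% of all IgG sites were. The PDCD4 scores at these positions ran from 1 to 8 with a median of 2, and 3 were above 5: HSP90AB1 (a chaperone) with 8 for each antibody, GAS5 (a snoRNA host gene) with 7 for each, and LINC00486 with 7 for IgG and 8 for PDCD4. Around the members, PDCD4 sites were counted 20 times at the position itself, 20 times at 1 nt upstream and 24 times at 1 nt downstream. The mean count per offset was 13.4 at 1 to 10 nt and 9.65 at 11 to 30 nt. Because the methods describe a subtraction of IgG sites, the count at the position itself may be lower than before that step, which was not tested.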

How the data were processed

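iCLIP was measured in MCF10A cells with 2 PDCD4 antibody and 2 IgG replicates. With iCount, the authors mapped crosslinks on GRCh38 with the annotation of Ensembl release 88, subtracted IgG crosslink sites on the PDCD4 side ahead of peak calling, and pooled the replicates of each antibody into 1 list. How the subtraction was done is not given in the sources used here, and 721 positions stand in both lists. The deposited score is a raw count of cDNAs per 1-nt site, not normalized, and sites passed a false discovery rate of 5%. Settings of mapping and of cDNA collapsing are not given in the sources used here.

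Sites with an IgG score above 5 were kept. Regions came from GENCODE release 44 (same build) on the same strand, where a coding sequence came ahead of a 3′UTR, then a 5′UTR, an exon of noncoding RNA and an intron. An exon of noncoding RNA was an exon of any transcript without a coding sequence, also where the gene is protein-coding. Each site was given 1 host gene: a small RNA or mitochondrial gene whose exon holds the site, then NEAT1 or MALAT1, then the genes of the deposited label (54 members had several). SCARNA9, annotated as a long noncoding RNA, was counted as a small Cajal body RNA. Copies of the 30 nt after a site were counted over 194 contigs, without alternate or patch contigs. Shares have Wilson intervals and medians exact order-statistic intervals. The interval of a log2 ratio comes from the counting error of both sums.

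Genes named are the 15 with the largest summed score, hosts of the 10 highest sites, up to 3 per RNA family, hosts of the 10 members with the largest PDCD4 sum and of the 10 highest without PDCD4. PLEKHG5, CDK5R1, ANKS1B, RNU2-2P and the hosts of shared or exceeding PDCD4 sites were named after their values were seen. The members and lists were chosen with earlier results of these data known. The window counts and intervals were tested on simulated data. Copy counts were checked by a plain search of the genome for a few members with few copies each, so the largest counts were not checked. Alternatives were other score thresholds, regions, transcripts, windows and sequence lengths, clusters, and leaving out NEAT1 and MALAT1. The software was pysam 0.24.0, numba 0.67.0, matplotlib 3.10.9, scipy 1.17.1, pandas 2.3.3 and numpy 2.4.6 in Python 3.11.15.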

Additional observations from a re-analysis of the deposited data

How the results depend on the processing

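No paired analysis was possible because each list pools its replicates, and for the same reason leaving out a replicate could not be run. The share in soft-masked repeats was not computed, since the reference used here is not soft-masked. Shares rest on 768 sites, and 77 at scores of 8 or more.

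Of 71 values under an alternative, 34 lay within the interval of the main value. With 1 site per cluster all 7 main results did, but the share in small nuclear, nucleolar and Cajal body RNAs went from 4.43% to 2.95%. The intron share was 52.2%, 24.7% and 66.0% with scores above 4, above 7 and with every listed IgG site, 49.4% without NEAT1 and MALAT1, and 55.2% with introns and untranslated regions ranked first. The protein-coding share was 88.6%, 51.9% and 94.4% at the same thresholds and 89.0% without NEAT1 and MALAT1. The 10 leading genes held 10.1%, 53.6% and 3.0% of the cDNAs, 10.6% without NEAT1 and MALAT1, and 16.9% by number of sites. Uracil at the site was 40.3% above 7 and 51.6% with every site, and median GC with every site was 41.6%. Repeated sequence made up 9.97% with every site, 22.5% over 20 nt and 3.39% over 50 nt. PDCD4 lay near 11.2%, 31.2% and 5.21% at these thresholds, 11.3% within 5 nt and 22.1% within 25 nt. The log2 ratio of PDCD4 over IgG was -3.50, -2.93 and -4.37 at these thresholds, -2.97 without NEAT1 and MALAT1, -4.02 within 5 nt, -2.22 within 25 nt and -4.46 with list totals over sites above 5.

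Alternatives chosen after seeing the data were leaving out the mitochondrial genome and keeping only a score of 6. The former changed the log2 ratio to -3.60. The latter gave 48.7% for introns, 87.6% for protein-coding genes, 12.5% for the leading genes and 13.1% for PDCD4 within 10 nt.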
